A study of Mus musculus with 16 samples.

Results

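Mitochondrial ribosomal proteins are the protein part of the ribosomes that work inside mitochondria, and their transcripts were compared among the right kidneys of 5 mice. The members were the genes for which the platform annotation gives a single symbol that starts with Mrpl (large subunit) or Mrps (small subunit) followed by a digit. There were 63 such genes among 9669 named genes, 41 with a large subunit symbol and 22 with a small subunit symbol, on 70 of the 20205 probes of the array. Of these, 59 genes, 37 large and 22 small, had a probe measured in each mouse on 3 or 4 of its arrays, among 8005 named genes that passed the same filter. Mrpl24, Mrpl35, Mrpl44 and Mrpl55 did not pass it, and 44 of the 59 measured members had values on all 16 arrays.

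The mice W1, W2, W3, W4 and W5 were wild-type male littermates on a mixed C57BL/6 and 129Sv background, aged 88 ± 2 days and killed between 8 and 10 in the morning. The labels name no treatment. Each kidney of W1 to W4 was hybridised against the kidney of W5 on 4 two-colour arrays, named W1.1 to W4.4, with the mouse in channel 1 on arrays 1 and 3 and W5 in channel 1 on arrays 2 and 4. Values are log2 ratios against W5, which is at 0, with the sign turned on arrays 2 and 4.

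The sources used here do not say which channel is the numerator, so a sign tells only on which side of W5 a kidney lay. Serpina1e, a secreted serine protease inhibitor, fixes the side: its values ran from 1.89 to 2.81 in W1 to W4 and were all positive (SE 0.088 each, n = 4 arrays). A positive member value therefore means the Serpina1e side of W5, and no statement is made on which kidney held more of a transcript. Because the labels name a single kidney per mouse and no separate extracts for its arrays, standard errors (SE) and p-values describe these 5 kidneys' RNA only and do not extend to mice in general. In whole kidney RNA, fewer cells of a type and less RNA per cell cannot be told apart.

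The mitochondrial ribosome translates the few messages of the mitochondrial genome, which encode core subunits of the respiratory chain and ATP synthase. Its RNAs come from mitochondrial DNA, while all of its proteins are encoded in the nucleus, made in the cytosol and imported. Some members have counterparts in bacterial ribosomes and others are found only in mitochondria. The kidney, and its proximal tubule above all, is rich in mitochondria because reabsorption of salt and solutes consumes ATP. A symbol does not always tell the place: the proteins of Mrps18a and Mrps30 sit in the large subunit in mammalian structures, and that of Mrps36 has been reassigned to the alpha-ketoglutarate dehydrogenase complex.

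Promoters are shown for 4 members, picked as examples of the differences described below after their values were seen. Mrpl36 and Mrpl11 had the widest ranges over the 5 kidneys, Mrpl3 had one of the narrowest, and the probes of Mrpl17 gave unlike values. Each line holds the 250 bases before a gene's start (RefSeq, GRCm38.p6), read 5′ to 3′ on the gene's strand, and capitals mark matches to a searched motif. Mrpl36 lies at chr13:73330759-73331008 on the plus strand, Mrpl11 at chr19:4962056-4962305 on the plus strand, Mrpl3 at chr9:105053018-105053267 on the plus strand and Mrpl17 at chr7:105811088-105811337 on the minus strand.
Mrpl36: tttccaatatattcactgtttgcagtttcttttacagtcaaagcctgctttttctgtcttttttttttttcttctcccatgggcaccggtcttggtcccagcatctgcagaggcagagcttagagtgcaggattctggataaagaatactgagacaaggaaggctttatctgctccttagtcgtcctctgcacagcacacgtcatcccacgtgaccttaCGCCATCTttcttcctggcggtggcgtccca
Mrpl11: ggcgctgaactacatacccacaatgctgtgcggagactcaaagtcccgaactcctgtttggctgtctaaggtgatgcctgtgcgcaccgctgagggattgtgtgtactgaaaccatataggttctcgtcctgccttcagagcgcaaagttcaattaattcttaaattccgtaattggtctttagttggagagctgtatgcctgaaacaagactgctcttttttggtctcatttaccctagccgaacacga
Mrpl3: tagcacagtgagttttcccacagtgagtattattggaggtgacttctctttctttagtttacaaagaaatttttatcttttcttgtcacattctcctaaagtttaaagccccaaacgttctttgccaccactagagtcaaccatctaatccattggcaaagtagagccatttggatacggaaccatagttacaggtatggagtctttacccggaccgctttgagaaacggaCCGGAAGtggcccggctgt
Mrpl17: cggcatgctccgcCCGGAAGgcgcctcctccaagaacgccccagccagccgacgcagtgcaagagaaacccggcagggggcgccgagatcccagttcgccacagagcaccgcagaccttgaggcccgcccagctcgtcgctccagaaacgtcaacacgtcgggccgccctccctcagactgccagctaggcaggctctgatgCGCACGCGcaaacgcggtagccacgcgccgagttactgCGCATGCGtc
The searched motifs were CGCANGCG, bound by NRF1, CCGGAAG, bound by ETS factors such as GABP, and AGATGGCG, bound by YY1, each on both strands. These factors are known regulators of nuclear genes for mitochondrial proteins. The Mrpl36 promoter held a YY1 match that starts 31 bases before the gene's start, written as its reverse complement, and the Mrpl3 promoter an ETS match 19 bases before it. The Mrpl17 promoter held an ETS match and a pair of NRF1 matches, and none of the 3 motifs occurred in the stretch shown for Mrpl11.

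Over all members, 52 of 59 had a promoter entry, with 58 windows of 300 bases from 250 before to 50 after a start. The NRF1 motif was found in 15 windows (25.9%), the ETS motif in 22 (37.9%) and the YY1 motif in 7 (12.1%), and 37 windows (63.8%) held at least 1 of the 3. Among windows of the same length, 15.4%, 16.1% and 3.64% held the NRF1, ETS and YY1 motif for all named genes tested, and 30.5% held at least 1. For all 32851 promoters these shares were 8.21%, 8.86% and 1.95%, and 16.8% for at least 1. A match is a description of letters and does not show that the factor binds there.

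No mitochondrial ribosomal protein transcript was called different among the 5 kidneys, where 4.2% of named genes were called. All fitted differences between kidneys were below 1.5-fold. The question was how far transcript levels vary among wild-type littermates. The range of a gene, the distance between its outermost kidneys with W5 at 0, had a median of 0.20 on the log2 scale over the 59 members, against 0.23 over all named genes. Member ranges lay between 0.068 for Mrps9 and 0.54 for Mrpl11, with the middle of the members between 0.16 and 0.28 (quartiles). A range above 1.25-fold was found in 8 members (13.6%), against 25.5% of named genes. A range above 1.5-fold was found in 0 members, against 274 named genes (3.42%). Part of a range is array noise, which was smaller in the members (median residual SD 0.158 against 0.183). Ranges alone do not show that members vary less between kidneys.

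The moderated F test of limma on the 5 kidneys called 0 of 59 members at an adjusted p under 0.05, where 4.2% of named genes were called. At an unadjusted p under 0.05 the same test marked 8 members (13.6%), against 18.2% of named genes, and the lowest adjusted p was 0.0797, for Mrpl36. Among W1 to W4 alone, where W5 cancels, limma called 0 members, with a lowest adjusted p of 0.134, where 0.824% of named genes were called. That test marked 6 members (10.2%) at an unadjusted p under 0.05, against 11.4% of named genes. Over the 10 pairs of kidneys limma also called 0 members, where 4.66% of named genes were called in at least 1 pair. For a list of 59 genes, a count of 0 is near the background in each of these tests. At an unadjusted p under 0.05 in at least 1 pair it marked 21 members (35.6%), against 42.8% of named genes. A call in a pair did arise under some settings, for Mrpl11 and Mrpl42 between W2 and W5 and for Mrpl36 between W3 and W4. With only probes that had values on all 16 arrays, these adjusted p-values from limma were 0.0354, 0.0468 and 0.0422. Each is the lowest of a member's 10 pairs, adjusted over probes within its pair and not over the 10 pairs.

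The arrays were precise enough to bound the differences. The SE of a member's value in a mouse was between 0.065 and 0.13 (median 0.086, n = 3 or 4 arrays). The 95% intervals of all 10 pairs lay within 1.5-fold for 47 of 59 members and within 2-fold for all 59. The outermost bound was 1.88-fold, for Mrpl11. Each interval holds for 1 pair of 1 member and was not widened for the number of pairs and members. The spread of repeat arrays was also smaller in the members, with a median residual SD of 0.158 against 0.183 for all named genes. The median variance between mice, with the array noise subtracted, was 0.00257 in the members and 0.00124 in all named genes. It was above 0 in 66.1% of members and 55.6% of named genes.

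**Figure D1:**
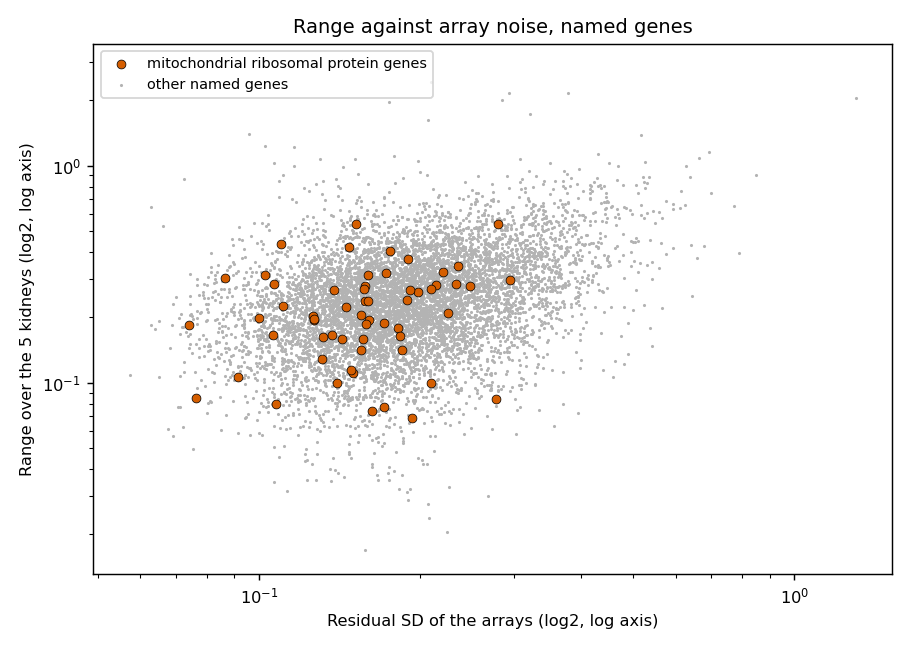
Range over the 5 kidneys (log2, log axis) against the residual SD of the arrays (log2, log axis) for the 59 members (orange) and the other named genes (grey). The members lie within the cloud of named genes, with ranges up to 0.54.

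W5 seldom stood at an end of the 5 kidneys. All of W1, W2, W3 and W4 lay on the same side of W5 for 4 members (6.78%), Mrps22, Mrpl14, Mrpl17 and Mrpl18, against 21.8% of named genes. The test of the 4 littermates' means against W5, also with limma, called 0 members, where 0.325% of named genes were called. It marked 1 member (1.69%) at an unadjusted p under 0.05, against 12.9% of named genes. This was Mrps22, a small subunit protein found in mitochondria only, with a mean of 0.14 over the 4 littermates (SD 0.12) and an adjusted p of 0.347. The kidney that stood farthest from the others was W2 for 18 members, W3 for 14, W1 for 13, W4 for 13 and W5 for 1. W5 is fixed at 0 while W1 to W4 carry array noise around it, so its low count is partly set by the design. The same count over named genes was not computed.

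**Figure D2:**
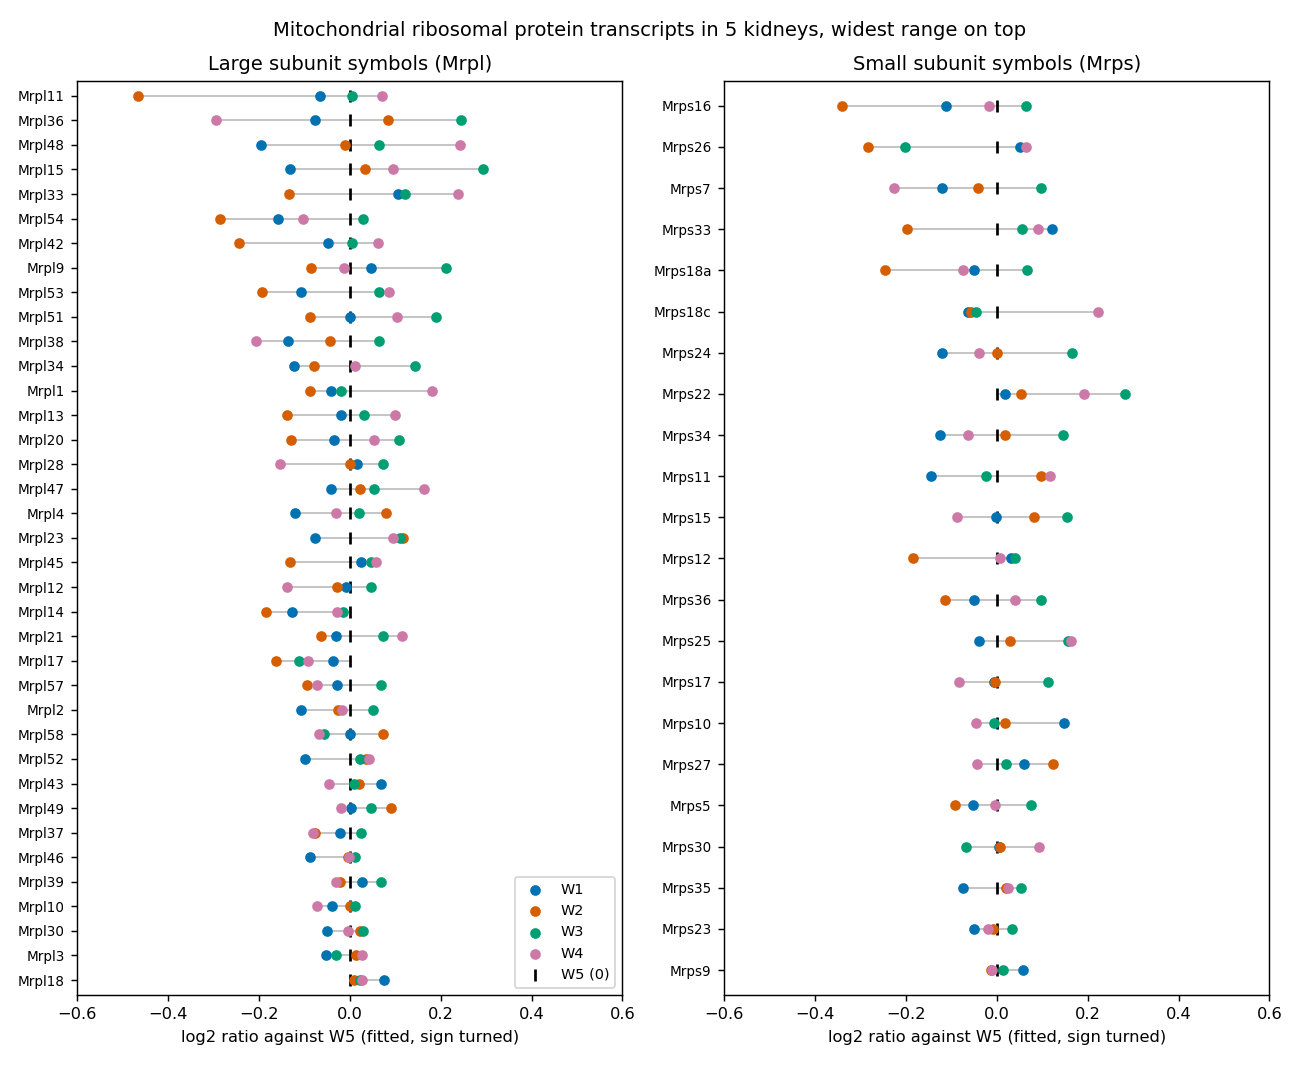
Fitted log2 ratio against W5 (x axis) of each measured member in W1, W2, W3 and W4 (coloured points, W5 as a tick at 0), with large subunit symbols on the left and small subunit symbols on the right, sorted by range. Most values lie within 0.2 of W5, and in 49 of 59 members W3 lies on the positive side.

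The widest ranges in the large subunit belonged to Mrpl11 and Mrpl36. Mrpl11 encodes the counterpart of bacterial L11, which lies at the base of the stalk where elongation factors dock. It measured -0.84, -0.11, -0.91 and -0.0074 on arrays 1 to 4 of W2. The same arrays of W1 gave 0.16, -0.40, -0.0095 and -0.011, those of W3 -0.061, -0.072, -0.18 and 0.33 and those of W4 0.11, -0.028, -0.065 and 0.27. W2 stood at the negative end by arrays 1 and 3, on which the mouse was in channel 1, while arrays 2 and 4 lay close to W5 and within the other mice. The fitted values were -0.065, -0.47, 0.0048 and 0.072, with a range of 0.54 (1.45-fold), an SE of 0.13 and an adjusted p of 0.207 in limma's 5-kidney test. Without mouse W2 the range was 0.14.

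Mrpl36 encodes the counterpart of L36, a very small protein of the bacterial large subunit. In W4 it measured -0.38, -0.19, -0.28 and -0.32, and in W3 0.44, -0.0088, 0.41 and 0.14. In W1 the values were -0.034, -0.18, 0.24 and -0.33, and in W2 0.28, 0.0027, 0.28 and -0.23. All 4 arrays of W4 lay on the negative side and did not overlap the arrays of W3, while W1 and W2 had values on both sides. The fitted values were -0.076, 0.083, 0.25 and -0.29 (SE 0.083), the range was 0.54 and the adjusted p 0.0797. Leaving out array W4.2 gave a range of 0.63 and an adjusted p of 0.0369, so 1 array decides on which side of the threshold this member falls.

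Mrpl48 encodes a protein of the central protuberance of the mitochondrial large subunit. It measured 0.041, -0.45, -0.079 and -0.29 in W1 and 0.33, -0.035, 0.46 and 0.21 in W4, the outermost kidneys, which overlapped in 1 value of each. In W2 and W3 the arrays gave 0.034, -0.17, 0.32 and -0.23 and 0.19, -0.0092, 0.10 and -0.026. The fitted values were -0.20, -0.011, 0.065 and 0.24 (SE 0.072), with a range of 0.44 and an adjusted p of 0.121. In every mouse arrays 1 and 3, taken as a mean, lay above arrays 2 and 4, and Mrpl48 was among the members called for the orientation term described below.

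Mrpl15, the counterpart of L15 of the bacterial large subunit, lay at the positive end in W3, where the arrays gave 0.58, 0.13, 0.24 and 0.22. W1 was at the other end with 0.023, -0.069 and -0.20, where array 2 had no value. The groups of arrays of W3 and W1 did not overlap. The fitted values of Mrpl15 were -0.13, 0.034, 0.29 and 0.095, with a range of 0.42 and an adjusted p of 0.202. Mrpl33, the counterpart of bacterial L33, gave -0.17, -0.074, -0.18 and -0.11 in W2 and 0.44, -0.063, 0.0020 and 0.57 in W4, again the outermost kidneys. The arrays of these mice did not overlap, but the nearest, -0.074 in W2 and -0.063 in W4, lay close together. As for Mrpl36 and Mrpl15, the kidneys compared are the outermost by these same values. How often named genes show no such overlap was not computed. Its range was 0.37 and its adjusted p 0.303. Mrpl54, which has no bacterial counterpart, lay farthest to the negative side in W2 with -0.15, -0.29, -0.56 and -0.15. All arrays of W1 and W2 lay on the negative side for Mrpl54, its range was 0.31 and its adjusted p 0.173.

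In the small subunit the widest range was that of Mrps16, the counterpart of bacterial S16. It measured -0.22, -0.27 and -0.46 on arrays 1 to 3 of W2, with no value on array 4, and 0.14, -0.12, 0.15 and 0.083 in W3. W2 stood at the negative end, and its fitted value of -0.34 was followed by -0.11 in W1, -0.018 in W4 and 0.065 in W3 (range 0.41, adjusted p 0.268). Mrps26, found in mitochondria only, spread widely within W2, where the arrays gave 0.16, -0.63, -0.11 and -0.55. Its range was 0.35 with an adjusted p of 0.324. Mrps7, a protein of the head of the small subunit, had -0.19, -0.12, -0.14 and -0.45 in W4 and 0.057, -0.17, -0.46 and 0.42 in W2. The arrays of W4 all lay on the negative side, those of W2 lay on both, the range was 0.32 and the adjusted p 0.483. Mrps33, also found in mitochondria only, was farthest to the negative side in W2 at a fitted value of -0.20 and had a range of 0.32 with an adjusted p of 0.424.

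**Figure D3:**
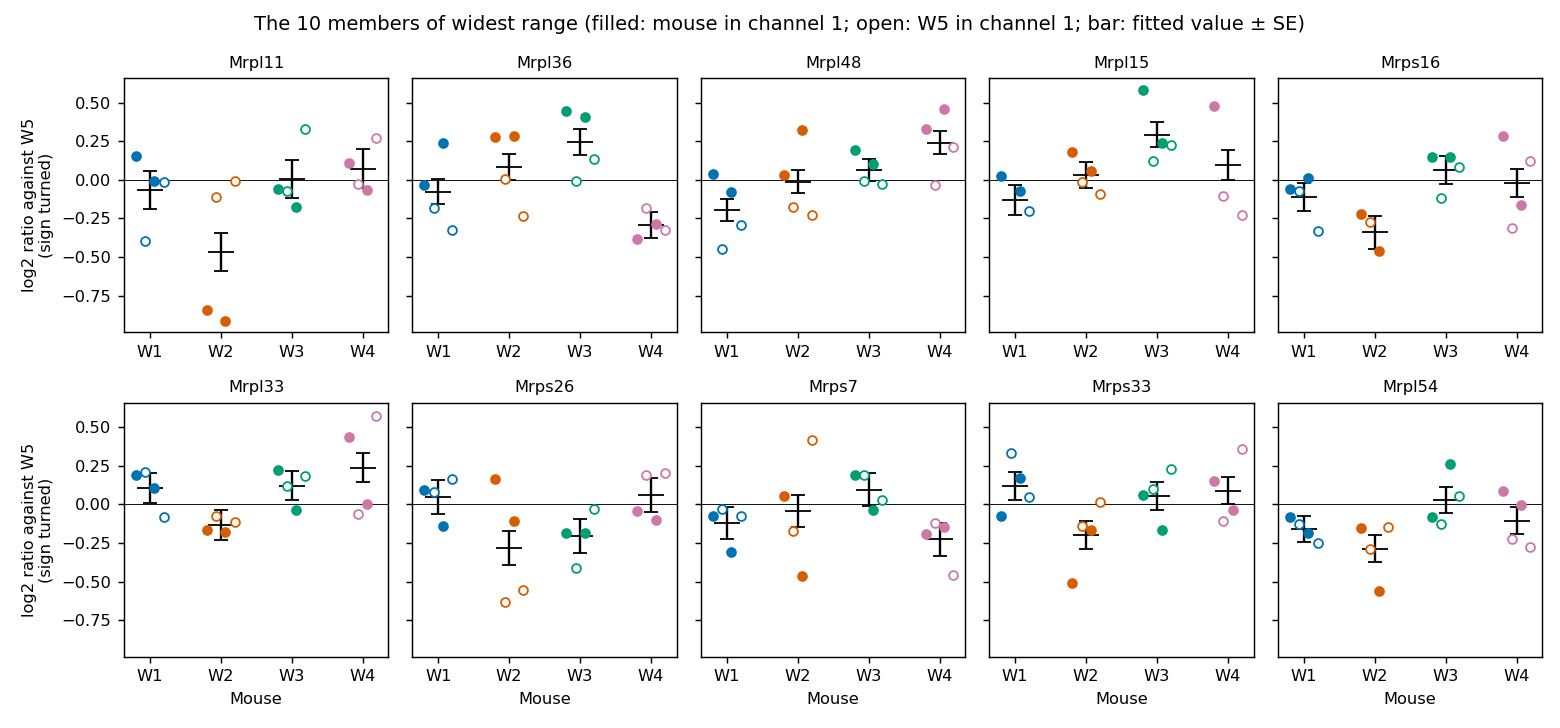
Log2 ratio against W5 on each array (y axis) in W1 to W4 (x axis) for the 10 members of widest range; filled points have the mouse in channel 1, open points have W5 there, and bars are the fitted value ± SE. In Mrpl11 the low value of W2 comes from the filled points, and in Mrpl36 all points of W4 are below 0.

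The members that varied least came from both subunits. Mrps9, the counterpart of S9 in the head of the small subunit, had fitted values of 0.056, -0.012, 0.014 and -0.011 and a range of 0.068. Mrpl18, whose bacterial counterpart binds 5S rRNA, had 0.074, 0.0087, 0.021 and 0.026 and a range of 0.074. Mrpl3, the counterpart of L3 near the peptidyl transferase centre, had -0.052, 0.013, -0.030 and 0.026 and a range of 0.078. These ranges are below the SE of a single fitted value, 0.096 for Mrps9. Mrpl30, the counterpart of L30, had a range of 0.079 and Mrps23, found in mitochondria only, one of 0.084. For Mrps23 the small range did not come from close arrays, since W2 gave -0.76, 0.13, 0.47 and 0.13.

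By symbol, the median range was 0.19 in the 37 Mrpl members and 0.23 in the 22 Mrps members, which include Mrps18a, Mrps30 and Mrps36. It was 0.23 in the 32 members whose number is that of a bacterial protein (up to 36 in the large and 21 in the small subunit) and 0.20 in the 27 members with higher numbers. These medians were not tested against each other, because members of an array share its hybridisation.

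The members leaned to different sides of W5 in different mice. W3 had a median member value of 0.051 and W1 one of -0.041, with -0.022 for W2 and -0.0049 for W4, where the medians of all named genes lay between -0.0087 and 0.0096. In W3, 49 of 59 members (83.1%) were on the positive side, against 52.5% of named genes. In W1 the positive side held 17 members (28.8%), against 46.6% of named genes. W2 had 24 positive members (40.7%), against 53.0% of named genes, and W4 had 28 (47.5%), against 51.0%.

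The mean over members ran from 0.024 to 0.13 on the arrays of W3 and from -0.053 to -0.0048 on those of W1, so these mice did not overlap. It ran from -0.094 to -0.014 in W2 and from -0.039 to 0.060 in W4. As mean ± SD over 4 arrays, the member mean of W3 was 0.059 ± 0.045, that of W4 0.0086 ± 0.048, that of W1 -0.036 ± 0.022 and that of W2 -0.057 ± 0.036. Array W3.4 had the highest mean of all 16, and without it the median member value of W3 was 0.029. Without array W2.2 the median of W2 was -0.0027, and without array W4.2 that of W4 was 0.030, on the other side of W5.

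Positive on every array of W3 with a value were 5 members (8.47%), against 8.88% of named genes, and negative on every array of W1 were 5 members (8.47%), against 9.09%. In W2, 12 members (20.3%) were negative on every array, against 10.2% of named genes. Positive on every array of W4 was 1 member (1.69%), against 8.28% of named genes. The median in W3 was 0.047 for the Mrpl and 0.060 for the Mrps members.

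**Figure D4:**
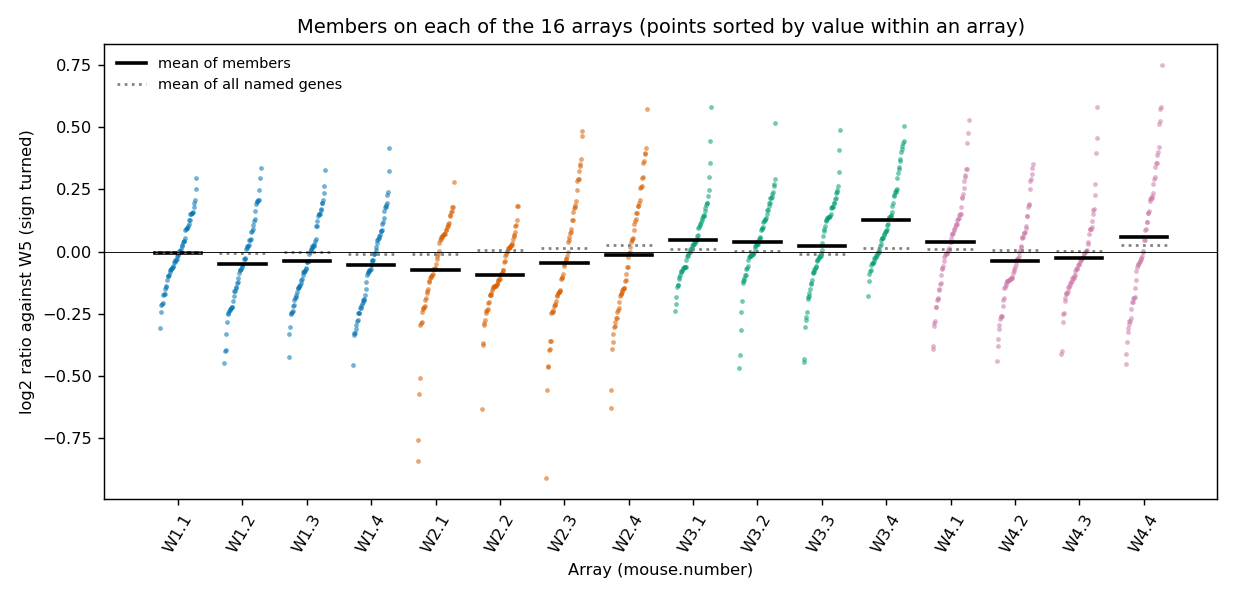
Log2 ratio against W5 (y axis) of the measured members on each of the 16 arrays (x axis), as points sorted by value within an array, with the mean of the members (solid bar) and of all named genes (dotted bar). The member means of W3 lie between 0.024 and 0.13, above those of W1 and W2.

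More members were called for the orientation of the array than for the mouse. The orientation term is the distance by which the values with the mouse in channel 1 and those with W5 there lie on either side of a mouse's fitted value, and it is a technical quantity. It was called by limma for 13 of 59 members (22.0%), where 13.7% of named genes were called, for 6 large and 7 small subunit symbols. They were Mrpl3, Mrpl18, Mrpl21, Mrpl23, Mrpl34, Mrpl48, Mrps11, Mrps17, Mrps18a, Mrps18c, Mrps24, Mrps25 and Mrps30, with terms of 0.13 to 0.19 in size, 6 positive and 7 negative. Mrps24 had a term of -0.15 with fitted values of -0.12, 0.00086, 0.17 and -0.039 in W1 to W4, and Mrps25, found in mitochondria only, one of -0.16 with -0.039, 0.028, 0.16 and 0.16. Mrpl23, whose bacterial counterpart lies at the exit of the nascent chain, had a term of -0.13 with -0.078, 0.12, 0.11 and 0.096, Mrpl34, the counterpart of L34, one of -0.14 with -0.12, -0.080, 0.14 and 0.011, and Mrps30 one of -0.13 with 0.0045, 0.0067, -0.067 and 0.092. In all 5 the arrays with W5 in channel 1 lay, on average, to the positive side of those with the mouse there. The count of members called was 1 without mouse W1, 4 without W2, 3 without W3 and 5 without W4. Fewer arrays enter these fits, and the share of named genes called in them for orientation was not computed.

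The 3 largest terms belonged to small subunit symbols. Mrps11, the counterpart of S11 on the platform of the small subunit, had a term of 0.19 (SE 0.049, adjusted p 0.0203). In W1 it measured 0.10, -0.40, 0.17 and -0.46 and in W4 0.30, -0.0019, 0.58 and -0.41. Arrays 1 and 3 were higher than arrays 2 and 4 in both mice, and the distance between the orientations exceeded the range over the kidneys of 0.26. Mrps18a, one of several mammalian proteins related to bacterial S18, had a term of 0.18 (SE 0.037, adjusted p 0.00811) and fitted values of -0.051, -0.25, 0.067 and -0.074 in W1 to W4. Mrps18c, another of them, had one of -0.18 (SE 0.057, adjusted p 0.0486), with -0.29, 0.013, -0.24 and 0.30 in W2. With both orientations in every mouse the term cancels in the mean of a mouse that has all 4 values.

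For 5 members a second probe could be set beside the first, with fitted values in the order W1, W2, W3 and W4. Mrpl17, the counterpart of L17 near the exit of the nascent chain, gave -0.038, -0.16, -0.11 and -0.091 on its first probe (SE 0.093). The other gave -0.086, 0.030, 0.22 and 0.060 (SE 0.11, and 0.12 in W3), so W2, W3 and W4 changed sides. Mrpl21, the counterpart of L21, gave -0.031, -0.064, 0.072 and 0.11 and -0.13, -0.093, -0.039 and 0.20, with W4 at the positive end on both probes. Mrps17, the counterpart of S17, gave -0.0073, -0.0051, 0.11 and -0.084 and -0.014, -0.15, 0.035 and -0.016, with W3 at the positive end on both.

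Mrpl49, found in mitochondria only, gave 0.0020, 0.090, 0.047 and -0.020 on its first probe (SE 0.083). The other gave -0.031, -0.088, -0.089 and 0.00081 (SE 0.11). Every mouse changed sides between the probes, but all of these values except 0.090 were smaller than their SE. Mrps23 gave -0.050, -0.0083, 0.034 and -0.019 and -0.090, -0.028, 0.13 and -0.052, in the same order of W1, W4, W2 and W3 on both probes, with a range of 0.22 on the second. None of these second probes was called in limma's 5-kidney test, with adjusted p-values from 0.581 to 0.918.

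The other genes of mitochondrial translation are given beside the members. Of 67 listed genes, among them aminoacyl-tRNA synthetases, elongation factors and assembly factors, 33 were measured and 0 were called in limma's 5-kidney test, with 4 at an unadjusted p under 0.05. Over all named genes 4.2% were called and 18.2% marked at an unadjusted p under 0.05, so a count of 0 in a list of this size is near the background. The lowest adjusted p was 0.162, for Lrpprc, which binds and stabilises mitochondrial messages. Their median range was 0.22, and their medians were -0.016, -0.015, 0.026 and -0.011 for W1, W2, W3 and W4. In W3, 25 of 33 (75.8%) were on the positive side.

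Among 11 measured genes of mitochondrial gene expression and biogenesis, of 19 listed, 1 was called. This was Ppargc1a, which encodes PGC-1alpha, a coactivator of NRF1, GABP and ERR-alpha known to raise mitochondrial gene expression. It measured -0.77, -0.29, -0.71 and -0.51 in W3 and -0.59, 0.13, -0.33 and -0.22 in W4. In W1 the values were 0.039, 0.090, 0.080 and -0.11 and in W2 -0.14, -0.11, -0.24 and -0.0070. All arrays of W3 and W2 lay on the negative side, the arrays of W3 did not overlap those of W1 or W2, and W1 lay close to W5. The fitted values were 0.025, -0.12, -0.57 and -0.25, with a range of 0.60 and an adjusted p of 0.00312, while the test among W1 to W4 gave 0.0988. In W3, Ppargc1a and the median member lay on opposite sides of W5. A relation between Ppargc1a and the members was not tested. Nrf1, Gabpa, Yy1, Esrra and Tfam were not called, with ranges of 0.098, 0.28, 0.30, 0.25 and 0.10.

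Genes of oxidative phosphorylation, whose mitochondrially encoded subunits the mitochondrial ribosome makes, had 78 measured genes with 2 called (2.56%), against 4.2% of named genes. These were Cox7a1, with 0.072, -0.52, -0.12 and 0.056 in W1 to W4 (range 0.60, adjusted p 0.0110), and Cox8b, with -0.27, -0.52, -0.36 and -0.49 (range 0.52, adjusted p 0.0402). Both encode forms of cytochrome c oxidase subunits that are typical of muscle, heart and brown fat. The list had a median of -0.081 in W2, its lowest, and of 0.064 in W3, its highest, with 0.011 for W1 and 0.027 for W4, and 63 of 78 (80.8%) were positive in W3. Cytosolic ribosomal proteins, of which 49 were measured and 0 called by limma (9 at an unadjusted p under 0.05), against the same 4.2%, had medians of -0.073, 0.019, 0.050 and 0.14 in W1, W2, W3 and W4. They were positive in 38 of 49 (77.6%) in W3 and in 8 (16.3%) in W1, the same lean as in the members, which had 83.1% and 28.8%. In W4 they were positive in 42 (85.7%) and in W2 in 30 (61.2%), where the members had 47.5% and 40.7%. These lists share arrays, and the differences between them were not tested.

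**Figure D5:**
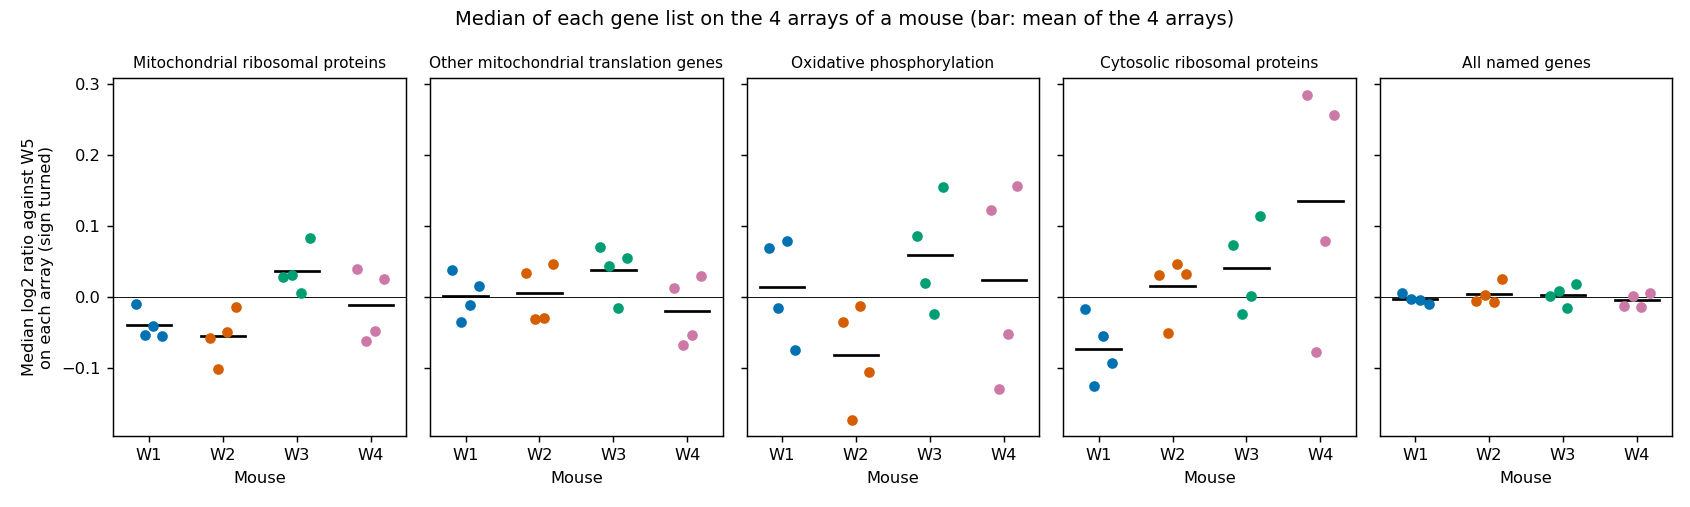
Median log2 ratio against W5 (y axis) of each gene list on each of the 4 arrays of W1 to W4 (x axis), with the bar at the mean of the 4 arrays. The mitochondrial ribosomal proteins stay within about 0.1 of W5, whereas the medians of oxidative phosphorylation genes and cytosolic ribosomal proteins spread further between arrays of a mouse.

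Markers of kidney cell types were set beside the members, with 4.2% of all named genes called in the same test. Of the proximal tubule markers, 12 were measured and 4 called, with medians of -0.052, 0.11, -0.064 and -0.12 in W1, W2, W3 and W4. Calls were also made for 5 of 7 endothelial and stromal markers, with medians of 0.14, 0.29, 0.039 and 0.27, for 3 of 5 collecting duct markers and for 2 of 3 glomerular markers. Limma called 0 of 2 markers of the loop of Henle and distal tubule, 0 of 4 of leukocytes, 0 of 4 of muscle and 0 of 2 of red blood cells, with 1, 3, 2 and 0 of them at an unadjusted p under 0.05. All 3 measured adipocyte markers were called, but not on the same side throughout. Fabp4 had -0.47, -0.67, -0.64 and -0.31 and Cidec -0.37, -0.36, -0.68 and -0.85 in W1 to W4, while Lpl had -0.026, -0.49, 0.099 and -0.15. The part of cell composition in the members' values was not tested, and ratios between kidneys do not give the level of a marker in a kidney.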

How the data were processed

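The deposited log2 ratios of the 2 channels were made by the authors, per the labels, from mean intensities with background subtracted, scaled to a median ratio of 1, after scanning on a GenePix 4000A and image analysis in GenePix Pro 3.0. The log base is not written in the labels; it was settled from the values, since under log2 the largest share of values matched quotients of whole numbers of at most 12 (tolerance 2e-06) on 16 of 16 arrays. The filter behind empty cells and the dye of each channel were not stated in what was used here. An array held values for 16209 to 18406 of 20205 probes, and for arrays the number of hybridisations and animals limits the precision. No 2 arrays held identical values. The sign was turned on the 8 arrays with W5 in channel 1. Before this turn, the deposited values of opposite orientations of a mouse correlated at -0.156, -0.0759, -0.0658 and -0.107 across probes in W1 to W4. Each probe was first centred over mice within an orientation. Because a swap of channels reverses the sign of a ratio, a negative correlation here means agreement between the orientations. Genes are not independent replicates.

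Probes with values on at least 3 of 4 arrays of each mouse (15715) were fitted with limma (3.58.1, R 4.3.3) using 4 mouse coefficients and an orientation term. Tests were two-sided, with Benjamini-Hochberg adjustment over all probes within each question and a call at an adjusted p under 0.05. Each pair of kidneys was adjusted by itself, with no adjustment over the 10 pairs. The W5 test used the 4 littermates' means and leaves out the spread of W5. The fit was tested on simulated data. Where a member lacked a value on an array, that array was dropped from its fit.

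Of 20205 probes, 11723 had a single gene symbol. The probe measured on most arrays stands for a gene, then the first identifier, and 9 probes with several symbols that include a member were not used. The members and gene lists were chosen with earlier results of these data known. Named with values are members called in any test, the 10 widest and 5 narrowest ranges, the 3 largest orientation terms, members with more than 1 measured probe, called genes of the pathway lists, and Serpina1e. A few others are named for a count or a lowest p and were chosen after their values were seen.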

Additional observations from a re-analysis of the deposited data

Results flagged for a closer look

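On array W4.4, Mrps18c measured 0.75, while the other 3 arrays of W4 lay between -0.021 and 0.11. This array stood far from the others by Dixon's criterion, with a gap of 0.836 of the whole range. Of the 51 groups of 4 arrays tested among the named members this was the only one past the criterion, which chance passes in about 1 of 20 groups.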

How the results depend on the processing

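The results were recomputed under 31 settings, and 257 of 274 values counted as the same. A median member value counted so when it moved by less than the SD of the array means of its mouse. The median range did so when it moved by less than the median SE. A count did so when it stayed within 1.5-fold, or at 0 where it was 0. The side of W5 was not part of this rule. The median of W4 counted as the same without array W4.2, where it changed side. In the 5-kidney test the count of members called stayed at 0 except without 1 array, where it ran from 0 to 1: Mrpl36 was called without W4.2. Over pairs of kidneys the count was 3 with values on all 16 arrays and 3 with 1 probe per named gene in the fit (Mrpl11, Mrpl36 and Mrpl42, fewer probes tested), and 0 to 1 without 1 array: Mrpl11 without W1.2 or W2.4, and Mrpl36 without W4.2. Over 28 settings the lowest adjusted p of a pair ran from 0.0351 to 0.791 for Mrpl11, 0.0334 to 0.227 for Mrpl36 and 0.0468 to 0.716 for Mrpl42. The count for the orientation term was 1, 4, 3 and 5 without mouse W1, W2, W3 and W4 (fewer samples). It was 7 to 15 without 1 array. For these counts over pairs and for the orientation term, the shares of named genes called under the same settings were not computed. The median range of the members was between 0.15 without mouse W2 and 0.23 without array W4.2. The median member value of W3 stayed positive, between 0.029 and 0.068. Named genes called in the 5-kidney test numbered 336, against 215 with no orientation term, 207 without mouse W1 and 200 without W2. With the array number as a replicate block, members called stayed at 0 and the median range was 0.20. Same-numbered arrays of different mice had correlations of deviations, taken within mouse and orientation, from -0.0731 to 0.211, over 0.1 in 4 of 12 distinct values. Taken within mouse alone, which leaves the orientation in, they were over 0.1 in 21 of 24 pairs. By neither measure were all over 0.1, and the numbers were not taken to pair the samples. This rule cannot exclude an effect shared by some same-numbered arrays, since W3 and W4 gave 0.131 and 0.211 within mouse and orientation. Centring an array moved the median of all named genes in a mouse by at most 0.0078, in W2, where the median member value was -0.022.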

Other observations

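The upstream windows of several members overlap a neighbouring gene. Mrps11 on the plus strand and Mrpl46 on the minus strand have starts 42 bases apart (RefSeq, GRCm38.p6). Mrps11, with fitted values of -0.15, 0.098, -0.025 and 0.12 in W1, W2, W3 and W4, had a range of 0.26, and Mrpl46, with -0.089, -0.0038, 0.011 and -0.0017, one of 0.10. The upstream window of Mrps12 overlaps Sars2, the mitochondrial seryl-tRNA synthetase. In W2, Mrps12 lay at -0.18 (SE 0.082) and Sars2 at 0.17 (SE 0.12), on opposite sides of W5, and neither gene was called in limma's 5-kidney test, with adjusted p-values of 0.576 and 0.738.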
